A study of Mus musculus with 16 samples.

Results

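Adult bone of the Ali35 mouse line was compared with adult bone of wild-type mice on Illumina bead arrays, in which a biotin-labelled copy of each RNA sample binds gene-specific probes and each probe's brightness is read. The comparison took the 4 arrays titled Ali35 bone and the 4 titled wild-type bone, 8 of the 16 arrays of the series. The other 8 arrays held brain of 3-day-old pups. All mice, controls included, were of the C3H/HeJ strain, which carries no further allele or treatment in the labels. Bone mice were 120 days old, and each array carried total RNA of a different mouse. Per the series title the Ali35 line carries a mutation of Shc2, whose protein links receptor tyrosine kinases to Ras as an adaptor. The labels name neither the zygosity, the sex, nor which bone was taken and whether marrow was removed. Shc2 itself was not analysed here, as no probe carried that symbol.

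Bone is built by osteoblasts, which lay down a matrix of type I collagen and mineralize it, and is removed by osteoclasts, which dissolve mineral with acid and digest collagen with proteases. Cartilage at growth plates and joints is made by chondrocytes, with type II collagen and the proteoglycan aggrecan as its main components. The cavities hold marrow, where red cells, platelets, granulocytes, monocytes and B cells form beside fat cells, vessels and stromal cells. A sample of whole bone mixes RNA of all of these, so fewer cells of a type and less RNA per cell cannot be told apart in any result given here.

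The labelled tissue was checked against defining genes. Col1a1, Bglap, Ibsp, Sp7, Alpl, Sparc and Ctsk were bright on all 8 arrays. Acp5, an acid phosphatase of osteoclasts, was dim (49.6 to 103), and the osteocyte gene Dmp1 stayed under an intensity of 16 on 7 of 8 arrays. The array of Ali35 replicate 1 stood apart. Xist, the RNA of the inactive X chromosome, read 221 and 167 on its 2 probes there and at most 11.7 elsewhere. The Y-linked gene Eif2s3y read -2.50 there against 410 to 686 elsewhere. Of the other Y-linked genes, Kdm5d read 4.08 there against 21.4 to 43.7 elsewhere. Uty did not separate the array (23.9 there, 22.5 to 37.6 elsewhere), and Usp9y stayed under 16 on all 8 arrays. By Xist, Eif2s3y and Kdm5d that array read as female and the other 7 as male, so sex was not balanced between the groups. On that array the slow muscle list also averaged 1.18 and the fat cell list 0.44 in log2 above the wild-type mean, and the early B cell list 0.75 below it. 

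Of 25697 probes, 12223 reached an intensity of 16 on at least 4 of the 8 arrays and were tested, covering 8700 genes. Values under 16 were set to 16. The change of a gene with arrays under 16 rests in part on that floor, which holds below for Dkk1, Bcl3 and Adamts4 (2 wild-type arrays each), Sf3a2 (3 wild-type arrays), Gsk3a (3 wild-type arrays and 1 Ali35 array), Pdk2 (1 wild-type array), and Angpt1 and Hif1a (1 Ali35 array each). A probe was called when limma gave an adjusted p under 0.05. A gene was represented by its brightest tested probe, and a call was termed stable when it also held in each of the 8 fits that left out 1 array. Of the probes, 3006 were called (24.6%), 1552 higher (12.7%) and 1454 lower (11.9%) in Ali35, and 7.26% were stable rises and 4.67% stable falls. Of the genes, 2110 were called (24.3%), 1176 higher (13.5%) and 934 lower (10.7%), and 1039 calls were stable (11.9%), 689 of them higher (7.92%) and 350 lower (4.02%). Leaving out wild-type replicate 4 or 1 brought the called probes to 1634 or 1759, and leaving out any other array kept 2216 to 2636. The groups did not overlap for 29.0% of genes, and the median gene moved by -0.03. All counts within gene lists below stand against these shares. Where leaving out 1 array moved such a count by over 1.5 times, other than between 0 and 1, its range over the 8 fits that left out 1 array is given. Of 91 lists, 84 had at least 10 tested genes. Among these, 24 had 20% or more of their genes higher and none lower. At the looser threshold of 10% or more lower and none higher there were 7. Of those, the early B cell list (40%) and the small-subunit ribosomal list (34.8%) pass 20%. Lists share genes and arrays and were chosen with earlier results of these data known, so these counts describe the lists and no test was made of them.

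**Figure D1:**
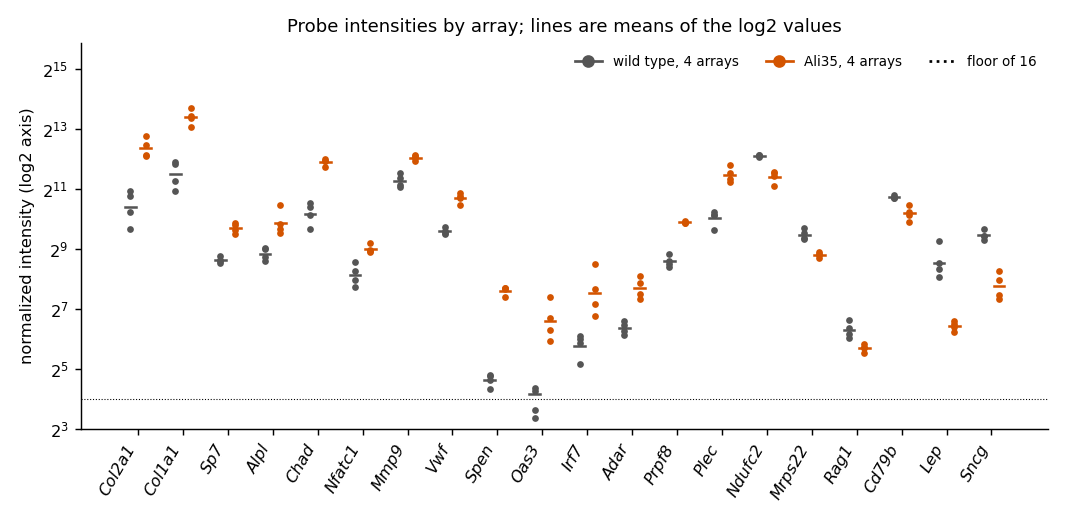
Normalized intensity (log2 axis) of 20 named genes on each of the 4 wild-type (grey) and 4 Ali35 (orange) bone arrays, with lines at the mean of the log2 values and the floor of 16 dotted. The points of the groups are apart for each of these genes, with Ali35 above wild type from Col2a1 to Plec and below it from Ndufc2 to Sncg.

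The regulators of the osteoblast lineage rose in part, while the abundant mineral-phase proteins did not pass the test. Sp7, the transcription factor required for osteoblast formation, read 397, 433, 388 and 375 on the wild-type arrays and 932, 719.5, 899 and 796 on the Ali35 arrays. All 4 Ali35 arrays lay above all wild-type arrays, a 2.09-fold rise (log2 1.06 ± 0.11 SE, limma adjusted p = 0.000645). Dlx3, a homeobox factor of osteoblast differentiation, read 115, 108, 85.7 and 95.4 in wild type and 297, 172, 208 and 219 in Ali35, with no overlap (log2 1.13 ± 0.17, adjusted p = 0.00263). Foxc1, a forkhead factor of skeletal and stromal cells, rose 1.81-fold. These were the 3 of 9 lineage regulators that were called, and all 3 calls were stable. Twist1, Msx1 and Atf4 had log2 changes of -0.32, -0.26 and -0.19 and were not called.

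Of 17 osteoblast matrix and mineral genes, 2 rose and 0 fell (median 0.18), and with 1 array left out 1 to 2 rose (fewest without any of 5 arrays). Alkaline phosphatase, Alpl, frees phosphate for mineralization and read 509, 388, 429.7 and 525 in wild type and 1411, 743, 813 and 924 in Ali35, where replicate 1 was the highest. Its rise was stable (log2 1.04 ± 0.20, adjusted p = 0.00702). Bmp1, a protease that trims procollagen, had 0.46 ± 0.12 and lost its call without Ali35 replicate 1. The osteocalcin genes Bglap and Bglap2 had -0.22 and -0.08, and Serpinf1 had 0.26, none of them called. Among 11 osteocyte genes 3 rose: Irx5 (log2 0.84 ± 0.21), the chaperone gene Hyou1 (0.92 ± 0.13) and the Wnt antagonist gene Dkk1 (0.63 ± 0.20), the last not called without Ali35 replicate 1. Mepe, a mineralization regulator of osteocytes, had 0.14 and did not pass.

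Both collagen lists held rises and no falls. Col1a1, the main chain of bone collagen, read 3856, 1956, 2468 and 3616 in wild type and 13343, 11145, 10608 and 8566 in Ali35 (log2 1.91 ± 0.23, adjusted p = 0.001). The Ali35 arrays were all at least 2-fold above the highest wild-type array. Of 8 fibrillar collagen genes tested 5 rose and 0 fell (median 0.72), with Col27a1 at 1.34 ± 0.19, Col1a2 at 0.76 ± 0.20 and Col5a1 at 0.57 ± 0.12. Col3a1 and Col5a2, at 0.23 and 0.21, were not called. Of 12 non-fibrillar collagens 7 rose and 0 fell (median 0.66). The basement membrane chain Col4a2 read 547, 375, 469.6 and 437 in wild type and 1319, 769.5, 894 and 843 in Ali35, a 2.06-fold rise. The microfibril chains Col6a1 and Col6a2 rose 2.16-fold and 2.69-fold, and Col6a2 was highest on Ali35 replicate 1 (724 against 398 to 436 on the others).

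Collagen-modifying enzymes moved the same way with smaller values: 6 of 20 rose, 0 fell, the median was 0.41, and with 1 array left out 2 to 5 rose (fewest without any of 5 arrays). Plod3, which hydroxylates and glycosylates collagen lysines, read 905, 919, 936 and 772 in wild type and 1710.1, 1432, 1259 and 1385 in Ali35 (log2 0.71 ± 0.12, adjusted p = 0.00477). Crtap, part of the prolyl 3-hydroxylation complex, rose by 0.50 ± 0.13 and its partner P3h1 by 0.48 ± 0.14. Elastic fibre and adhesive glycoprotein genes rose in 10 of 20 cases with 0 falls (median 0.48), and with 1 array left out 6 to 10 rose (fewest without wild-type replicates 2, 3 or 4). Eln, which encodes elastin, read 20.5, 28.6, 25.99 and 35.7 in wild type and 75.8, 48.3, 49.2 and 56.7 in Ali35, with the groups apart (log2 1.06 ± 0.19, adjusted p = 0.0061). Ltbp3 and Ltbp4, which store latent Tgf-beta in the matrix, rose by 0.69 ± 0.12 and 0.66 ± 0.14. Tenascin C, Tnc, rose by 0.76 ± 0.15. Mfap5 and Nid1, at -0.58 and -0.02, were not called.

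Proteoglycans went in both directions, with 7 of 17 higher and 4 lower, and with 1 array left out 1 to 3 fell (fewest without wild-type replicates 1 or 4). The heparan sulphate proteoglycans of basement membranes rose: Agrn read 665, 879.8, 727 and 636 in wild type and 1340.0, 1536, 1314 and 1390.3 in Ali35 (log2 0.95 ± 0.12, adjusted p = 0.00141), and Hspg2, which encodes perlecan, had 0.95 ± 0.17. Bgn, a small leucine-rich proteoglycan of bone, rose by 0.75 ± 0.12, while 2 members of the same family fell, Ogn (log2 -0.71 ± 0.13) and Lum (-0.55 ± 0.17). Srgn, the proteoglycan of blood cell granules, also fell (-0.87 ± 0.25). Among 24 sulphation and glycosaminoglycan genes 2 rose, the sulphotransferase gene Chst12 (0.97 ± 0.13) and the sugar transporter gene Slc35d1 (0.69 ± 0.14), and 2 fell, and with 1 array left out 0 to 2 fell (fewest without any of 4 arrays).

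Cartilage genes had the highest median change of the 26 compartment lists. All 13 tested genes of resting and proliferating chondrocytes had positive values (median 0.74), and 7 rose, 6 of them stable. Chad, which encodes chondroadherin, read 1362, 806, 1479 and 1118 in wild type and 3892, 3889, 3390.4 and 4098 in Ali35 (log2 1.71 ± 0.18, adjusted p = 0.000639). Its lowest Ali35 array was over 2-fold above its highest wild-type array. Col2a1 read 1958, 805, 1213 and 1746 in wild type and 6972, 4497, 4391 and 5639.8 in Ali35 on its brightest probe (log2 1.97 ± 0.27), and a second probe gave 2.02 ± 0.31. Col9a2, a type IX collagen chain on the surface of type II fibrils, rose by 1.18 ± 0.29, and Prelp, a leucine-rich matrix protein, by 1.03 ± 0.15. The summed intensity of the list ran from 4344 to 7055 on wild-type arrays and from 12686 to 17869 on Ali35 arrays. Genes of hypertrophic chondrocytes rose in 3 of 10 cases (median 0.39). Panx3, a channel of hypertrophic chondrocytes and osteoblasts, read 147, 132, 103 and 138 in wild type and 208, 189, 205 and 259 in Ali35 (log2 0.73 ± 0.14). The other members called were Sp7 and Alpl, which osteoblasts also express. The collagen of the hypertrophic zone, Col10a1, had 0.94 ± 0.40 and was not called, and the collagenase gene Mmp13 had -0.07.

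Both osteoclast lists held more rises than falls. Nfatc1, the transcription factor that switches on the osteoclast programme, read 249.9, 382, 305 and 214 in wild type and 592, 497, 475 and 487 in Ali35 (log2 0.86 ± 0.17, adjusted p = 0.00858). The groups did not overlap. The costimulatory receptor gene Oscar had 0.53 ± 0.16, but Tyrobp, the adaptor of such receptors, read 1738, 1890.0, 1940.0 and 1788 in wild type and 1296, 1494, 1244 and 1366 in Ali35 and fell (log2 -0.45 ± 0.10). Of 8 precursor and fusion genes 3 rose and 1 fell, and with 1 array left out 1 to 4 rose (fewest without wild-type replicates 3 or 4 or Ali35 replicate 1), and 1 to 2 fell (most without Ali35 replicate 4). Of 18 resorption genes 7 rose and 1 fell (median 0.02), 5 rises being stable. The gelatinase gene Mmp9 read 2165, 2982, 2625 and 2252 in wild type and 4349.8, 4474, 3912 and 4157 in Ali35 (1.70-fold, adjusted p = 0.00355). Mmp9 was also on the list of later neutrophil granule genes, so its rise counts in both lists, and which cells gave it was not tested. Plekhm1, which moves lysosomes to the ruffled border, rose 1.74-fold, the proton pump subunit gene Tcirg1 had 0.70 ± 0.16, and the chloride and bicarbonate carriers Clcn7 and Slc4a2 had 0.40 ± 0.13 and 0.43 ± 0.09. Cathepsin K, Ctsk, the main collagen-digesting protease of osteoclasts, had -0.01 and did not pass. The cytosolic pump subunit Atp6v1c1 fell (log2 -0.30 ± 0.09), though not without Ali35 replicate 1.

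Vessel genes rose in part. Of 18 endothelial genes 8 rose and 0 fell (median 0.28), 7 of the rises being stable. Vwf, the von Willebrand factor gene, read 741, 853, 782 and 724 in wild type and 1871, 1664, 1418 and 1757 in Ali35 (log2 1.11 ± 0.11, adjusted p = 0.000597). Vwf was also on the platelet list, so its rise counts in both lists. The sinusoidal scavenger receptor gene Stab1 rose 1.89-fold, the Tgf-beta co-receptor gene Eng 2.03-fold, and Plvap, of endothelial diaphragms, had 0.91 ± 0.17. Cdh5 and Robo4 had 0.72 ± 0.13 and 0.75 ± 0.14, whereas Emcn and Aqp1, at -0.39 and -0.07, were not called. In the pericyte and smooth muscle list 3 of 12 rose, and with 1 array left out 3 to 5 rose (most without Ali35 replicate 2). Notch3, the Notch receptor of mural cells, read 107, 136, 99.0 and 105 in wild type and 245, 215, 251 and 247 in Ali35 (log2 1.11 ± 0.12, adjusted p = 0.000824). The pericyte gene Rgs5 had -0.52 and was not called.

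Fat, muscle and nerve markers were uneven. Lep, the fat cell hormone, read 611, 369, 267 and 323 in wild type and 98.1, 85.1, 89.9 and 76.4 in Ali35 (log2 -2.10 ± 0.23), and the 19 fat genes held 2 rises and 2 falls, and with 1 array left out 1 to 2 rose (fewest without wild-type replicates 1, 2 or 4), and 1 to 2 fell (fewest without any of 5 arrays). Adipoq and Plin4 had -0.23 and -0.22 and did not pass. The list mean ran from -0.17 to 0.34 on wild-type arrays and from -0.38 to 0.44 on Ali35 arrays, so the groups overlapped. Of 16 fast-muscle genes 5 rose and 0 fell, and with 1 array left out 3 to 6 rose (fewest without any of 4 arrays). Among them were Ryr1, the calcium release channel (1813, 1814, 1642 and 1565 in wild type and 5876, 2835, 3974 and 5003 in Ali35) and the myosin chain Myh4 (2296, 1803, 1759 and 1378 and 4599.9, 2622, 3434 and 4406), while Pvalb and Mylpf had 0.06 and -0.09 and were not called. In both Ryr1 and Myh4 replicate 1 was the highest and replicate 2 the lowest Ali35 array. No slow-muscle gene of 11 was called, and the myoglobin gene Mb had -0.31 ± 0.18. Gamma-synuclein, Sncg, a gene of peripheral nerve and fat, read 816, 633, 687 and 694 in wild type and 309.9, 177, 250.4 and 161 in Ali35 (log2 -1.70 ± 0.20), the 1 call among 7 nerve genes, and with 1 array left out 1 to 2 fell (most without Ali35 replicate 4).

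**Figure D2:**
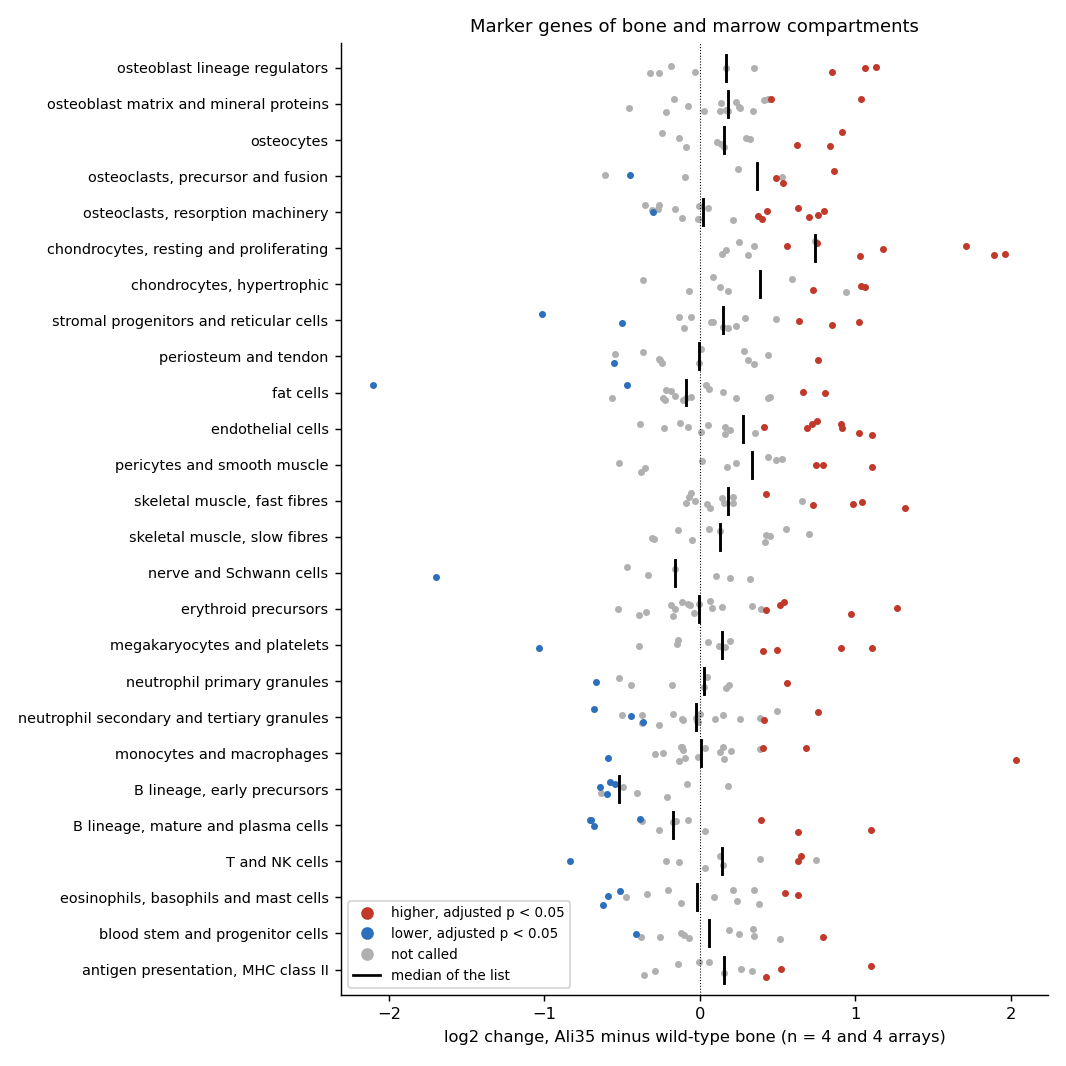
The log2 change (Ali35 minus wild type, 4 arrays each) of every tested marker gene in 26 compartment lists, coloured by call, with each list's median as a black bar. Chondrocyte lists lie to the right, the early B cell list lies to the left at a median of -0.52, and most blood lists centre near 0.

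Among the marrow lists the early B lineage had the lowest median change. Of 10 early B cell genes 4 fell and 0 rose (median -0.52), and with 1 array left out 2 to 5 fell (fewest without wild-type replicate 4). Cd79b, a signalling chain of the B cell receptor, read 1654, 1662, 1711 and 1786 in wild type and 953, 1209, 1128 and 1424 in Ali35 (log2 -0.55 ± 0.13, adjusted p = 0.0153). Rag1, the recombinase that assembles antigen receptor genes, read 65.1, 99.2, 83.2 and 72.4 in wild type and 46.5, 56.7, 52.5 and 54.0 in Ali35 (1.51-fold lower). In both genes all Ali35 arrays lay below all wild-type arrays, with replicate 1 the lowest. The interleukin 7 receptor gene Il7r had -0.64 ± 0.19, and Cd79a, the partner chain of Cd79b, had -0.08 and was not called. Of 13 mature B and plasma cell genes 4 fell and 3 rose, and with 1 array left out 2 to 5 fell (fewest without wild-type replicate 4 or Ali35 replicate 2). Tnfrsf13c, the receptor for the survival factor Baff, fell 1.63-fold, from 144, 118, 127 and 148 to 86.4, 75.5, 77.9 and 88.7 on the 4 arrays of each group. Cd74, the invariant chain of MHC class II, rose 2.15-fold, and 3 of 11 class II genes were higher with 0 lower, H2-Ab1 at 0.52 ± 0.14 and H2-Eb1 at 0.43 ± 0.12, and with 1 array left out 1 to 3 rose (fewest without wild-type replicates 1, 2 or 4).

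Red cell genes rose in 5 of 21 cases with 0 falls and a median of -0.0041, and with 1 array left out 2 to 6 rose (fewest without wild-type replicate 4). Ank1, the ankyrin that ties the red cell membrane to spectrin, read 763, 1104, 1342 and 876 in wild type and 2384, 2416, 2698 and 2162 in Ali35 (log2 1.27 ± 0.17, adjusted p = 0.00168). Sptb, the beta spectrin bound by it, had 0.97 ± 0.23, and the blood group gene Kel 0.54 ± 0.11. The globin gene Hba-a1 and the haem synthesis gene Alas2 had 0.08 and -0.0041 and were not called. Of 13 platelet genes 4 rose, with Gp5 at 0.50 ± 0.10 and Selp at 0.91 ± 0.19, and 1 fell, the receptor gene Clec1b (-1.04 ± 0.24). Vwf, given above with the vessel genes, was among the 4 rises. Neutrophil lists held 1 rise and 1 fall among 9 primary granule genes and 2 rises and 3 falls among 21 later granule genes. With 1 array left out 0 to 3 fell (most without Ali35 replicate 2) of the former, and 1 to 2 rose (fewest without wild-type replicate 1), and 1 to 3 fell (fewest without wild-type replicate 2 or Ali35 replicates 3 or 4) of the latter. Myeloperoxidase, Mpo, read 12080.0, 14966, 12343 and 13066 in wild type and 19010.0, 20094, 17049 and 21382 in Ali35 (1.48-fold). Olfm4 fell from 637, 570.2, 620.2 and 804 to 434, 433, 479.9 and 306. Mmp9, given above with the osteoclast genes, was among the rises of the later granule list. Of 18 monocyte and macrophage genes 3 rose and 1 fell, and with 1 array left out 1 to 2 rose (fewest without wild-type replicates 2, 3 or 4). Siglec1, a sialic acid receptor that interferon induces, read 44.9, 49.2, 50.7 and 53.5 in wild type and 206, 283, 152 and 192 in Ali35 (log2 2.04 ± 0.17, adjusted p = 0.000176), while Lgals3 and Axl had -0.09 and 0.20 and were not called. The mast cell and basophil genes Fcer1a and Cpa3 fell (log2 -0.63 ± 0.12 and -0.51 ± 0.12), and Fcer1a had 1 high wild-type array (224 against 193 to 194).

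Genes that interferon induces rose in over 50% of the list. Type I interferons induce genes whose promoters often carry an element called ISRE. Of 38 tested interferon-stimulated genes 21 rose and 0 fell (median 0.56), and 13 of these rises were stable. Oas3, a double-stranded RNA sensor, read 12.5, 20.7, 19.5 and 10.5 in wild type, where 2 arrays lay under the floor, and 104, 170.3, 79.8 and 61.1 in Ali35. Adar, an RNA editing enzyme, read 70.3, 88.9, 97.4 and 76.5 in wild type and 235, 275, 163 and 182 in Ali35 (log2 1.34 ± 0.18, adjusted p = 0.00161). Ifitm3, which blocks virus entry, read 5700.0, 5475, 6537 and 5248 in wild type and 10494, 12191, 8057 and 9366 in Ali35 (1.73-fold). The de-conjugating enzyme Usp18 had 1.02 ± 0.20 and its substrate Isg15 0.83 ± 0.27, the latter not stable. The list mean ran from -0.15 to 0.14 on wild-type arrays and from 0.44 to 1.19 on Ali35 arrays, with Ali35 replicate 2 the highest and replicate 3 the lowest of the mutants.

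The signalling genes above these targets mostly stayed under the threshold, with 5 of 21 higher and 1 lower, and with 1 array left out 3 to 6 rose (fewest without wild-type replicate 4 or Ali35 replicates 1 or 2). Irf7, the factor that amplifies interferon production, read 58.0, 68.9, 64.1 and 36.1 in wild type and 204, 363, 109 and 144 in Ali35 (log2 1.75 ± 0.35, adjusted p = 0.00798). Irf2 rose by 0.65 ± 0.10, Tyk2 by 0.47 ± 0.15 and Stat3 by 0.61 ± 0.17, and Jak2 fell (log2 -0.39 ± 0.11). Irf1, Irf3 and Ifngr1, at 0.12, 0.04 and 0.01, were not called. Of 17 MHC class I genes 5 rose and 0 fell, and with 1 array left out 3 to 5 rose (fewest without wild-type replicate 2 or Ali35 replicate 4). They included both peptide transporter chains, Tap1 (68.8, 90.9, 85.9 and 90.7 in wild type and 148, 261, 118 and 255 in Ali35) and Tap2 (0.70 ± 0.15), B2m (0.51 ± 0.13) and the class I activator Nlrc5 (1.05 ± 0.23).

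Promoter letters were read from RefSeq promoters (GRCm38.p6, 250 bases before to 50 after each start), available for 29 of these 38 genes. The 10-letter pattern of GAAA, NN and GAAA in a row (N being any base), on either strand and with overlaps counted, stands for the core of an ISRE and was found in 17 of the 29 (58.6%), against 3.49% of all 27025 promoters of the table. Of the 17 genes with the letters 9 rose (median 0.54), and of the 12 without them 6 rose (median 0.44). Over all tested genes the letters did not separate the directions: 230 held them, 30 rose, 32 fell, and 27% were called, against 24.3% of all genes. The windows below show 4 of the rising genes, with the matched letters in capitals, 15 bases on each side and the coding strand written 5′ to 3′.
Oas3: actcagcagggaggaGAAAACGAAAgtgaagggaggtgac
Isg15: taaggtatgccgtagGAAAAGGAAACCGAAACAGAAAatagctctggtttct
Ifit3: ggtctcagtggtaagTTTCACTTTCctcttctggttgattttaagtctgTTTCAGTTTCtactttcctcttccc
Rsad2: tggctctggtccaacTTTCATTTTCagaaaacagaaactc
The windows lie at chr5:120777710-120777749 (minus strand), chr4:156200860-156200911 (minus), chr19:34583358-34583431 (plus) and chr12:26456548-26456587 (minus), and the matches begin 75, 78, 156 and 120 bases before the start site. Isg15 holds 3 overlapping matches and Ifit3 holds 2 separate ones. The letters are no evidence of factor binding, and Gbp2, which holds them too 59 bases before its start, had 0.43 and was not called.
Gbp2: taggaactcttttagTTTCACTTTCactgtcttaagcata

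**Figure D3:**
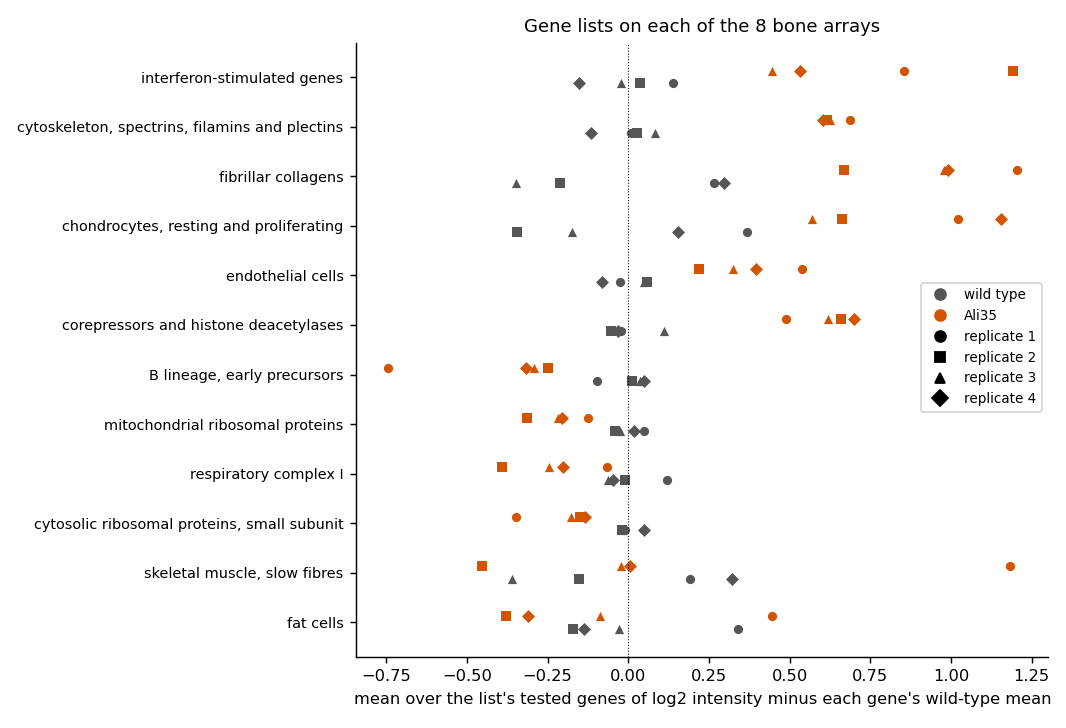
For 12 gene lists, the mean over tested genes of log2 intensity minus each gene's wild-type mean, on each of the 4 wild-type (grey) and 4 Ali35 (orange) arrays, with the marker shape giving the replicate number. Interferon, cytoskeleton, collagen and chondrocyte lists lie to the right in all 4 Ali35 arrays, mitochondrial and early B cell lists to the left, while the slow muscle list has Ali35 replicate 1 at 1.18 and the fat list has its highest arrays, Ali35 replicate 1 (0.44) and wild-type replicate 1 (0.34), in both groups.

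Signalling pathways differed in how many members rose. In the Wnt list of intracellular parts and targets 8 of 20 rose and 0 fell (median 0.31), and with 1 array left out 3 to 7 rose (fewest without wild-type replicate 1). Tcf7l2, a DNA-binding partner of beta-catenin, read 97.0, 134, 92.5 and 96.1 in wild type and 217, 179.8, 219.9 and 213 in Ali35 (log2 1.00 ± 0.14, adjusted p = 0.0019). Gsk3b, a kinase that marks beta-catenin for destruction, had a positive call at 0.50 ± 0.13. The related kinase gene Gsk3a had 0.74 ± 0.22, but most of its wild-type arrays lay under the floor. Gsk3a passed the filter mainly through Ali35 arrays, so its call, counted among these rises, is no support for a rise. Beta-catenin itself, Ctnnb1, had 0.24 and was not called. Among 10 Wnt ligands and receptors only Lrp4 was called (202, 225, 191 and 218 in wild type and 377, 357, 312 and 371 in Ali35), a receptor that binds the Wnt antagonist sclerostin. In the Notch list 7 of 20 rose and 1 fell (median 0.34). The receptors Notch1 (0.76 ± 0.15) and Notch4 (0.89 ± 0.14) rose with Notch3, as did the coactivator Maml1 (0.87 ± 0.16), whereas the targets Hey1 and Nrarp had 0.32 and -0.12 and did not pass and Hes6 fell (log2 -0.45 ± 0.11). Of 30 Bmp and Tgf-beta genes 2 rose and 2 fell, and with 1 array left out 1 to 5 rose (fewest without any of 5 arrays, most without Ali35 replicate 2), and 0 to 2 fell (fewest without wild-type replicate 1). Tgfb1, the growth factor stored in bone matrix, read 284, 413, 509 and 299.6 in wild type and 1038, 960.2, 859 and 936 in Ali35 (log2 1.37 ± 0.18, adjusted p = 0.00161), and its receptors Tgfbr1 and Tgfbr2 had -0.26 and 0.24 and were not called.

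Of 25 insulin and Igf pathway genes 10 rose and 1 fell, and with 1 array left out 5 to 10 rose (fewest without wild-type replicates 1 or 4). Tsc2, a brake on the growth kinase mTor, read 308, 341, 357 and 287 in wild type and 724, 668, 639 and 775 in Ali35 (log2 1.12 ± 0.11, adjusted p = 0.000492). Mtor itself had 0.58 ± 0.12, the transcription factor Foxo1 0.64 ± 0.09 and the binding protein Igfbp5 0.64 ± 0.09, all stable. Pik3r1 and Rictor had 0.04 and 0.06 and were not called. The vitamin D receptor gene Vdr read 52.2, 57.9, 78.8 and 85.2 in wild type and 211, 151, 196 and 186 in Ali35 (log2 1.46 ± 0.18, adjusted p = 0.00109). With Pth1r, the parathyroid hormone receptor (0.76 ± 0.21), it made up the 2 rises among 10 hormone genes, which had a median of 0.01, and with 1 array left out 1 to 2 rose (fewest without wild-type replicates 2 or 3 or Ali35 replicate 4). Of 18 genes of Shc adaptors, Ras and the Erk cascade 2 rose and 0 fell, below the background share. Shc1, another adaptor of the Shc family, had 0.20 ± 0.11 and was not called. Of 15 semaphorin and plexin genes, guidance cues that also act between bone cells, 8 rose and 0 fell (median 0.48), and with 1 array left out 4 to 7 rose (fewest without wild-type replicates 1 or 4). Sema4d, an inhibitor of osteoblasts made by osteoclasts, had 0.69 ± 0.21, and Sema4b read 528, 545, 594 and 532 in wild type and 868, 1080.1, 995 and 1062 in Ali35. Npr3, which removes natriuretic peptides and so limits bone growth, read 95.0, 65.6, 53.6 and 57.4 in wild type and 25.5, 24.5, 31.6 and 23.2 in Ali35 (2.55-fold lower), and Npr2, the signalling receptor for C-type natriuretic peptide, had 0.66 ± 0.16.

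Hedgehog genes were mostly under the detection filter, with 2 of 14 listed genes tested and none called. Immediate early genes held 2 rises among 16, Zfp36 (0.92 ± 0.14) and Klf4 (0.65 ± 0.10), and Egr1 had 0.29. Clock genes moved unevenly: the output factor Dbp read 1883, 1794, 1927 and 1006 in wild type and 507, 704, 712 and 971 in Ali35, where wild-type replicate 4 (1006) lay near the highest Ali35 array (971). The repressor Nr1d1 rose by 0.78 ± 0.15 and its relative Nr1d2 had -0.78 ± 0.19, and time of day of sampling is not in the labels. In the NF-kappa B list 3 rose, among them Rela (0.60 ± 0.13) and Bcl3, which read 12.2, 15.2, 35.9 and 26.4 in wild type, with 2 arrays under the floor, and 76.9, 73.9, 41.5 and 61.5 in Ali35. Of the 21 genes 3 fell, among them the inhibitor gene Nfkbia (-0.53 ± 0.15), and with 1 array left out 0 to 3 fell (fewest without wild-type replicates 1 or 2).

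Lists of chromatin regulators differed in how many members rose. In the Polycomb and DNA methylation list 2 of 21 rose and 0 fell (9.52% called, median -0.10), and 7 of 21 had positive values. Of 13 methyltransferase genes 6 rose and 0 fell (median 0.28). Kmt2b, which methylates histone H3 lysine 4, read 139, 209, 202 and 145 in wild type and 393, 495, 469 and 469 in Ali35 (log2 1.41 ± 0.16, adjusted p = 0.000846). Setd1a and Dot1l rose by 1.12 ± 0.17 and 1.01 ± 0.21, while the shared subunits Wdr5, Rbbp5 and Ash2l had -0.05, 0.07 and 0.15 and were not called. Of 17 remodeller genes 7 rose and 0 fell, and with 1 array left out 4 to 6 rose (fewest without wild-type replicate 1). Ep400, a helicase of the Tip60 complex, read 316, 516, 412 and 340.1 in wild type and 718, 956, 783 and 864 in Ali35 (2.12-fold). Smarcc2, a scaffold of the Swi/Snf complex, rose 1.68-fold, but Smarce1 and Bcl7a, at -0.29 and -0.17, were not called. Corepressors and deacetylases gave 10 rises and 0 falls among 23 (median 0.32), 7 of them stable. Spen, a Notch corepressor, read 24.9, 20.2, 27.7 and 28.2 in wild type and 168, 207, 203 and 208 in Ali35, with replicate 1 the lowest of the mutants. The class II deacetylase gene Hdac7 had 1.17 ± 0.14 and the heterochromatin factor Trim28 0.85 ± 0.11, whereas the class I enzymes Hdac2 and Hdac3 had -0.10 and 0.05 and were not called. Of 13 histone demethylase genes 3 rose and 0 fell, and Kdm6b rose 2.60-fold, from 59.8, 79.8, 75.2 and 49.6 to 172, 163, 150.4 and 193.

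Parts of the same machines went in opposite directions in 2 lists, the only ones of the 91 with at least 5 calls each way. In the list of acetylases, Brd proteins and Mediator, the bridge between transcription factors and RNA polymerase II, 10 rose and 7 fell, and with 1 array left out 3 to 7 fell (fewest without wild-type replicate 4). Med12, Med15, Med24 and Med25 rose, by 1.05 ± 0.17, 0.80 ± 0.12, 0.66 ± 0.10 and 1.30 ± 0.19. Med25 read 202, 231, 364 and 186 in wild type and 579, 597, 598 and 568 in Ali35. Med6, Med8, Med10, Med11, Med21 and Med30 fell, with log2 changes of -0.39, -0.33, -0.78, -0.42, -0.48 and -0.68. The genomic spans of the 10 higher genes of the list had a median of 52.1 kb and those of the 7 lower genes 13.8 kb. The higher genes include acetylases and coactivators such as Ep300 and Ncoa1. The higher Mediator genes spanned 15.9 (Med25), 24.8 (Med24), 24.8 (Med12), 71.7 (Med15) and 205 kb (Med13l). In the spliceosome list 6 rose and 6 fell, and with 1 array left out 1 to 7 fell (fewest without wild-type replicate 4). Prpf8, the scaffold at the catalytic centre, read 391.8, 366, 454 and 338 in wild type and 946, 979.8, 946 and 943 in Ali35 (log2 1.31 ± 0.11, adjusted p = 0.000168). All Ali35 arrays lay at least 2-fold above the highest wild-type array. Sf3a1 and Sf3b3 rose by 0.82 ± 0.10 and 0.97 ± 0.11. Sf3a2 had 1.03 ± 0.17, but most of its wild-type arrays lay under the floor. It passed the filter through the Ali35 arrays, so its call, counted among the 6 rises, is no support for a rise. The ring proteins Lsm3, Lsm7 and Lsm8 and the Sm proteins Snrpd2 and Snrpd3 fell, with log2 changes of -0.42, -0.58, -0.43, -0.43 and -0.42. Sf3b5 fell too (-0.43), while Sf3b2 and Snrpa rose (0.39 and 0.56), so Sf3b and Snrp genes went both ways. The median span was 4.35 kb for the 6 lower genes against 21.9 kb for the 6 higher ones, Sf3a2 included.

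The same direction with span was present over all genes. Genes were divided into 4 classes of equal size. In the class with the shortest spans (0.107 to 8.87 kb) 7.72% rose and 13.5% fell, and in the class with the longest (46.6 to 2271 kb) 17.2% rose and 6.99% fell. Their median changes were -0.08 and 0.03. The median span was 25.7 kb for genes that rose, 16.6 kb for genes that fell and 20.7 kb for all tested genes. Calls also varied with promoter base content: 8.89% rose and 15.4% fell in the class of lowest GC (25 to 54%), against 16.8% and 8.19% in the class of highest GC (67 to 87%). The pattern GGGCGG (either strand) was in 68.9% of promoters of genes that rose, 59.2% of those that fell and 63.4% of those tested. The part of span and GC content in the gene-level results was not tested.

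**Figure D4:**
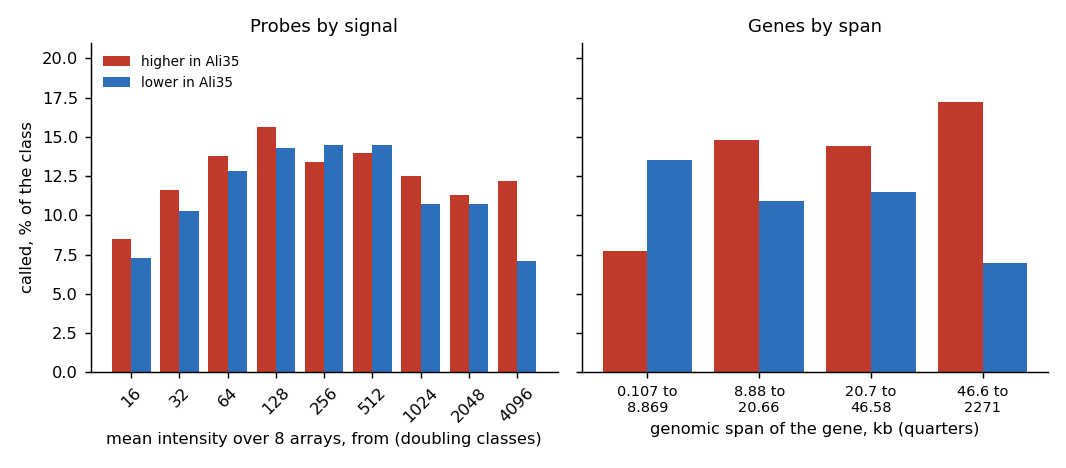
Left, the percentage of probes called higher (red) and lower (blue) in Ali35 in each doubling class of mean intensity over the 8 arrays. Right, the same for genes in 4 equal classes of genomic span in kb, where the red bars grow from 7.72% to 17.2% and the blue bars shrink from 13.5% to 6.99%.

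The called share varied with signal. The called share was 15.8% of probes with a mean intensity from 16 to 32, reached 29.9% from 128 to 256 and was 19.2% from 4096 upward. The median standard error of the log2 change fell from 0.188 in the dimmest of 4 equal classes of probes to 0.115 in the brightest, and the median size of a called change from 1.66-fold to 1.42-fold. Changes of 2-fold or more were one-sided in bright probes: in the brightest class 50 probes rose and 2 fell by that much, in the dimmest 83 and 31. Among named genes, the stable rises with the brightest probes were those of Mpo, Grina, Psap, Laptm5, Ifitm3 and Rsad2. Laptm5, a lysosomal membrane protein of blood cells, read 5925, 8478, 8594 and 5797 in wild type and 13577, 15602, 14079 and 14575 in Ali35 (log2 1.03 ± 0.15). The stable falls with the brightest probes were those of Myl6, Psmb3, Dnajc19, Hint1, Ndufs4 and Ndufc2. Myl6, a non-muscle myosin light chain, read 9997, 10495, 11105 and 10535 in wild type and 7523, 8435, 7754 and 7673 in Ali35 (1.34-fold lower, adjusted p = 0.0111).

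Mitochondrial ribosomal and respiratory genes had median changes below 0. Of 65 mitochondrial ribosomal protein genes 20 fell and 2 rose (median -0.24), and with 1 array left out 0 to 1 rose (fewest without wild-type replicates 1 or 4 or Ali35 replicate 1), and 8 to 22 fell (fewest without wild-type replicate 4). Mrps22 read 735, 639, 664 and 824 in wild type and 448, 414, 460.5 and 474 in Ali35 (log2 -0.67 ± 0.11, adjusted p = 0.00411), and Mrpl47 and Mrpl9 fell 1.57-fold and 1.41-fold. The groups did not overlap in these 3 genes. The rises were Mrps2 (0.47 ± 0.12) and Mrps34 (0.29 ± 0.10), both lost without Ali35 replicate 1. Complex I, which passes electrons from NADH into the respiratory chain, had 6 falls and 0 rises among 33 genes, and with 1 array left out 3 to 11 fell (fewest without wild-type replicates 1 or 4, most without Ali35 replicate 1). Ndufb11 read 78.2, 68.6, 74.7 and 77.6 in wild type and 40.3, 36.02, 38.4 and 41.4 in Ali35 (log2 -0.94 ± 0.10, adjusted p = 0.000594). Ndufc2 read 4373, 4481, 4320.2 and 4449 in wild type and 2786, 2938, 3038 and 2198 in Ali35 (1.62-fold lower). Of 41 genes of complexes II to V 6 fell and 0 rose, and with 1 array left out 2 to 7 fell (fewest without wild-type replicate 1). The share called in these respiratory lists was below the 24.3% of all genes, and 5 of 33 and 7 of 41 members had positive values.

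Cytosolic ribosomal genes fell in 6 of 31 large-subunit and 8 of 23 small-subunit cases, with 0 rises. Of these 0 and 1 were stable. With 1 array left out 0 to 6 fell (fewest without wild-type replicates 1 or 4) in the large subunit, and 1 to 6 fell (fewest without wild-type replicates 2 or 4) in the small. The stable member, Rps3a1, read 719.8, 685, 574 and 558 in wild type and 460.4, 439.7, 444 and 443 in Ali35. Ribosomal genes have many near-identical pseudogenes, so their probes may read more than 1 locus. Of 32 proteasome genes 6 fell and 0 rose, and with 1 array left out 3 to 6 fell (fewest without wild-type replicates 1 or 4). Psmb3 read 4843, 5149.9, 4931 and 4848 in wild type and 3434, 3747, 3512 and 3470.0 in Ali35. Of 25 ubiquitin-conjugating enzymes and ubiquitin-like proteins 8 fell and 2 rose (median -0.25), and with 1 array left out 1 to 5 fell (fewest without wild-type replicates 1 or 4). The hybrid enzyme Ube2o rose by 0.67 ± 0.14, while Sumo2, Sumo3 and Nedd8 fell, with log2 changes of -0.40, -0.53 and -0.31. Of 20 tRNA synthetase genes 7 rose, among them Vars (0.80 ± 0.14) and Aars (0.57 ± 0.11), and 2 fell, the accessory proteins Eef1e1 (-0.64 ± 0.13) and Aimp1 (-0.49 ± 0.11), and with 1 array left out 4 to 6 rose (fewest without wild-type replicates 1 or 4 or Ali35 replicate 3).

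Of 26 signal recognition and translocon genes, which bring new proteins to the endoplasmic reticulum, 5 fell and 1 rose (23.1% called, median -0.07), and with 1 array left out 3 to 5 fell (fewest without wild-type replicates 2 or 4). Srp9, Srp19 and Sec61b were among the falls, with log2 changes of -0.56, -0.84 and -0.72. Sec61b read 742, 978, 884 and 880.3 in wild type and 563, 571, 560.0 and 421 in Ali35, with replicate 4 the lowest. Of 28 vesicle coat and Golgi genes 5 rose and 1 fell, with 21.4% called against 24.3% of all genes and a median of 0.0046, and with 1 array left out 0 to 2 fell (most without Ali35 replicate 4). Sec16a, which organizes the sites where coated vesicles leave the endoplasmic reticulum, read 302, 288, 305 and 314 in wild type and 646, 669.9, 552 and 528 in Ali35 (log2 0.98 ± 0.11, adjusted p = 0.000824), and Sec24b and Sec24c rose 1.76-fold and 1.61-fold. Syvn1, a ligase that clears misfolded proteins, rose by 0.91 ± 0.12, and the chaperone genes Hsp90b1 and P4hb had 0.18 and 0.15 and were not called. Lysosomal genes rose in 7 of 32 cases and fell in 0, 5 of them stable. The glycogen-degrading enzyme Gaa read 289, 248, 290.3 and 249 in wild type and 588, 421, 381 and 517 in Ali35, and Psap, the precursor of sphingolipid activators, had 0.60 ± 0.12. Lamp1 and Lamp2 had 0.01 and -0.03 and were not called.

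The cytoskeleton list had the highest share of stable rises of the lists with at least 10 tested genes. Of 19 genes 12 rose and 0 fell (median 0.61), and 11 rises were stable. Plec, the giant linker of filament systems, read 1128, 1209, 1132 and 799.9 in wild type and 3606, 2392, 2604 and 2978 in Ali35 (log2 1.44 ± 0.17, adjusted p = 0.000998). The dynein motor gene Dync1h1 read 262, 302, 303 and 245 in wild type and 635, 591, 553 and 648 in Ali35 (2.19-fold). Myh9, the non-muscle myosin heavy chain, read 2161, 2028, 2176 and 1924 in wild type and 3438, 4078, 3625 and 3888 in Ali35, whereas its light chain Myl6 fell. Zyx and Actn1, at focal adhesions, rose by 1.13 ± 0.14 and 0.79 ± 0.11. Sptbn1 and Mical3 had -0.09 and -0.23 and were not called. The list mean ran from -0.12 to 0.08 on wild-type arrays and from 0.60 to 0.69 on Ali35 arrays, so the groups were apart. Among integrins 5 of 14 rose and 0 fell, and with 1 array left out 3 to 6 rose (fewest without wild-type replicates 1 or 3 or Ali35 replicate 2). Itga5, a fibronectin receptor, read 43.4, 69.9, 68.8 and 56.8 in wild type and 151, 125, 119 and 128 in Ali35.

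Metabolic lists were mixed. In lipid synthesis 6 of 26 rose and 1 fell. Srebf1, the transcription factor of fatty acid synthesis, read 16.2, 25.9, 33.4 and 19.95 in wild type and 106, 53.6, 75.3 and 69.0 in Ali35 (log2 1.68 ± 0.25, adjusted p = 0.0027), and Srebf2 and its escort Scap rose by 0.64 ± 0.15 and 0.59 ± 0.13. The enzymes Scd1, Hmgcs1 and Fdps had -0.16, 0.04 and 0.22 and were not called. Around pyruvate, the dehydrogenase chain Pdhb (log2 -0.81 ± 0.15) and the phosphatase Pdp1 (-1.14 ± 0.15) fell, while Ogdh rose by 0.91 ± 0.15 and the inhibitory kinase Pdk2 had 1.09 ± 0.22. Of 22 glycolytic genes 4 rose and 0 fell, 0 of them stable, and with 1 array left out 1 to 4 rose (fewest without wild-type replicates 2 or 4). Gapdh had 0.30 ± 0.12 and was not called. Of 13 alcohol, retinoid and steroid enzyme genes 4 fell and 2 rose, and with 1 array left out 1 to 2 rose (fewest without any of 5 arrays). Inmt, a methyltransferase, read 219, 171, 149 and 153 in wild type and 45.8, 34.6, 54.0 and 104 in Ali35, and the retinoid-regulated chemokine gene Rarres2 1169, 986, 1135 and 1117 in wild type and 718, 597, 608 and 459 in Ali35. In cell cycle genes 2 rose and 3 fell among 32 of the G1 to S list and 3 rose and 2 fell among 23 of the mitosis list. With 1 array left out 1 to 5 rose (fewest without any of 4 arrays, most without Ali35 replicate 1) in the former, and 0 to 3 fell (fewest without wild-type replicates 1 or 4) in the latter. Cyclin E2, Ccne2, read 308, 259, 287 and 286 in wild type and 112, 159, 171 and 88.8 in Ali35, whereas the licensing factor Cdt1 rose by 0.77 ± 0.17 and Top2a and Birc5 had -0.01 and -0.02 and were not called. DNA repair (1 higher and 2 lower of 27) and iron handling (0 and 1 of 15) stayed below the background share, and none of these calls was stable. In DNA repair 0 to 2 rose (most without Ali35 replicate 1), and 0 to 3 fell (fewest without wild-type replicate 1) with 1 array left out.

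Genes with several probes gave a second reading of the same transcript. Of 2142 genes with at least 2 tested probes, 149 had all probes higher, 131 all lower, 206 some higher, 364 some lower and 1290 none called. In 2 genes, Nme7 and Hnrnpul1, probes were called in opposite directions. Across these genes the log2 changes of the brightest and second brightest probes correlated at r = 0.795, as a description, since both come from the same RNA on the same arrays and genes are no independent replicates. Where the brightest probe was called, the second was called the same way in 319 of 564 genes (56.6%) and the opposite way in 0, and it had the same sign in 94.9%. Where the brightest rose 2-fold or more, the second was called the same way in 37 of 43 genes. Of 4 genes whose brightest probe fell 2-fold or more, the second was called the same way in 2.

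Of the genes with 3 or more tested probes, 36 had every probe called in 1 direction, 19 of them higher. Ncdn, which encodes neurochondrin, rose on all 3 probes, by 1.58 ± 0.13, 1.14 ± 0.13 and 1.69 ± 0.20 in log2. The first of them had 2 wild-type arrays under the floor, and the second read 111, 138, 154 and 112 in wild type and 264, 297, 269 and 298 in Ali35. Vdr rose on 3 probes by 1.46 ± 0.18, 1.41 ± 0.17 and 1.09 ± 0.19, and Ank1 by 1.27 ± 0.17, 1.27 ± 0.16 and 0.82 ± 0.11. Ncapd2, a condensin subunit, rose by 1.17 ± 0.18, 1.24 ± 0.17 (1 wild-type array under the floor) and 0.84 ± 0.17, and Alg3, a mannosyltransferase, by 0.95 ± 0.12, 1.13 ± 0.17 and 0.91 ± 0.14. Rida, a mitochondrial deaminase, fell on 3 probes, with log2 changes of -1.01, -0.66 and -0.88. The opposite calls of Nme7 came from a probe at 12.3 to 24.3, near the floor, which rose by 0.37 ± 0.11, beside 2 brighter ones with -0.80 ± 0.15 and -0.45 ± 0.12. In Hnrnpul1 all 4 probes were dim (12.6 to 45.6), with calls of -0.53 ± 0.11 and 0.47 ± 0.15, and in both genes the call of a rise was not stable.

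**Figure D5:**
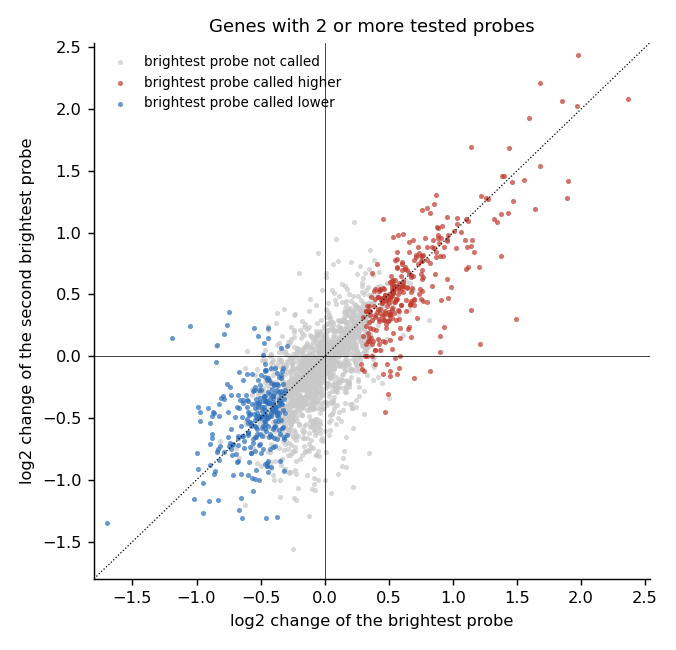
For 2142 genes with at least 2 tested probes, the log2 change of the brightest probe (horizontal) against that of the second brightest (vertical), coloured by the call of the brightest, with a dotted line of equality. Within the rises the values correlate at r = 0.781 (291 genes) and within the falls at r = 0.244 (273 genes). The sign was shared in 94.8% and 94.9% of them. The falls cover a narrower range, with 4 genes at 2-fold or more against 43 among the rises.

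By chromosome the called share ran from 19.9% of genes on chromosome 18 to 28.6% on chromosome 19. Chromosome 10, which carries Shc2, had 54 higher and 48 lower of 432 genes (23.6%). Genes beyond the lists included Hipk2, a nuclear kinase (49.0, 41.6, 83.0 and 45.7 in wild type and 199, 219, 223 and 195 in Ali35), and Nfic, a factor of tooth and bone formation (191, 161, 211 and 129 in wild type and 746, 545, 635 and 732 in Ali35), which rose 3.95-fold and 3.88-fold. Among the falls, Il1a, the gene of interleukin 1 alpha, read 79.5, 86.2, 82.5 and 97.1 in wild type and 42.2, 40.3, 36.8 and 30.5 in Ali35 (log2 -1.21 ± 0.13, adjusted p = 0.000634). Ccdc28a fell 2.40-fold. Carnmt1 and Vps26c also fell, each with 2 of 4 Ali35 arrays under the floor, so that their values of -1.20 ± 0.20 and -1.24 ± 0.26 rest in part on the floor. The falls of Trappc3 (-1.20 ± 0.30) and Chil3 (-1.24 ± 0.37) were not stable.

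The bone change was set against the change in the pup brain with a limma interaction term over 9225 probes tested in both. It differed for 2255 probes (24.4%), 1188 with the bone change above and 1067 with it below, and 1528 of these were called in bone. Tissue and age cannot be told apart in this difference. Ttyh3, a chloride channel gene, changed by 2.01 in bone and by -0.34 in brain (difference 2.35 ± 0.20 SE, adjusted p = 4.08e-06), with brain values of 330 to 397 in wild type and 256 to 312 in Ali35. Wiz, a partner of histone methyltransferases, changed by 1.85 and -0.05 (difference 1.90). For Zc3h3, a nuclear export factor, and Fhod1, a formin, which rose by 1.93 and 0.98 in bone, the brain value was at or near the floor. Of the 4 Ali35 brain arrays 2 lay under 16 for Zc3h3 and 3 for Fhod1, and 1 wild-type bone array did for Zc3h3, so the size of these differences depends on the floor.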

How the data were processed

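Total RNA of 8 bone samples, 1 per mouse and 1 per array, was purified with Trizol and a column and labelled as biotinylated cRNA, per the labels' protocols. GenomeStudio 2011.1 was used, per the submitters' processing notes. The deposited values are linear intensities, background-subtracted (some are negative) and normalized within each tissue by the authors with a method not given in the sources used here. Another 32 columns of not normalized values match no label and were not used. Probe genes came from GEO's platform annotation: 23978 of 25697 probes had 1 symbol, 1719 had none, and 23962 matched the RefSeq GRCm38.p6 table.

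Intensities under 16 were set to 16, log2 was taken, and probes at 16 or more on at least 4 of 8 arrays were fitted with limma 3.58.1 in R 4.3.3 (lmFit, eBayes, two-sided, 6 residual degrees of freedom). Adjusted p is Benjamini-Hochberg over all 12223 probes, with ± as the SE of a log2 change. Lists have no test of their own. The fit was tested on simulated data for this bone comparison, in which 200 of 12223 probes were changed. It recovered 77% of 2-fold changes and 19% of changes of 0.5 in log2, with 3.03% of calls false. In the bone arrays 24.6% of probes were called, and recovery and false calls at that share were not tested. The number of arrays limits the precision, and 47.3% of all probes reached 16 on each array.

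Members and gene lists were chosen with earlier results of these data known. Genes were named by rule: up to 3 stable calls per list by p, or else its brightest member. Further names were the genes ranked 13 to 20 by size of change in each direction, the 6 stable calls with the brightest probes in each direction, genes with 3 or more agreeing or with opposed probes, and the 4 of lowest p for the difference from brain. Other list members are given with their values, chosen after these were seen. Alternatives covered scaling, floor, filter, variance model, array weights, replicate number, the Xist level, threshold and each array left out.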

Additional observations from a re-analysis of the deposited data

Results flagged for a closer look

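In 23 of 470 groups of 4 arrays of named probes (4.89%) 1 array lay far from the other 3 by Dixon's criterion. Most of these probes were named for stable calls and some share a gene, so this share cannot be set against a chance rate. Ali35 replicate 1 was the outlying array in 8 groups. It was highest for Stab1 (132), Col6a2 (724), Adamtsl4 (88.8), Ogdh (877) and Atp1b2 (753), and lowest for Spen (168), Sf3a1 (898) and Ttyh3 (433). Ali35 replicate 2 was lowest for Notch3 (215) and Tcf7l2 (179.8) and highest for Chst12 (355) and Prpf8 (979.8). Ali35 replicate 3 was lowest for Vdr on its dimmest probe (42.9). Ali35 replicate 4 was highest for Col27a1 (88.8) and lowest for Sec61b (421). Wild-type replicate 2 was highest for Fcer1a (224), Tcf7l2 (134) and Rsad2 (6257). Wild-type replicate 3 was highest for Kdm4b (387), Ncapd2 (739.6) and Ank1 on its dimmest probe (236). Wild-type replicate 4 was lowest for Dbp (1006) and Scap (52.2). In each of these genes the bone groups stayed apart.

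The 4 genes with the lowest p for a bone change unlike the brain change were Ttyh3 (difference 2.35 in log2), Wiz (1.90), Zc3h3 (2.17) and Fhod1 (1.63), each by limma's interaction term. For Zc3h3 and Fhod1, 2 and 3 of the 4 Ali35 brain arrays lay under the floor of 16, on which these values depend. Age and tissue both differ between these comparisons and cannot be told apart.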

How the results depend on the processing

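No named probe that was called in the main fit or in an alternative changed direction between these fits. Sign changes of probes called in neither were not counted. The filter and the threshold moved the number of called probes, 3006 in all with 1552 higher and 1454 lower, by more than 1.5 times. Without a filter on dim probes 1430 were called, 803 higher and 627 lower, and at an adjusted p under 0.01 there were 1034, 682 and 352. With 1 array left out the counts ran from 1634 to 2636 in all, 955 to 1415 higher and 679 to 1251 lower. Wild-type replicate 4 gave the lowest counts and wild-type replicate 1 the next (1759, 1027 and 732). The cause was not tested. Lower calls outnumbered higher ones with an offset of 50 (1717 against 1657), a floor of 32 (1584 against 1536), an intensity trend (1671 against 1647) and array weights (1711 against 1674). Scaling, floor, variance model and weights gave 2587 to 3385. Xist lay under the floor on all arrays but Ali35 replicate 1. The Xist covariate therefore gave the same count as leaving that array out, 2572, and is no separate check. The number of probes that differ from brain, 2255, ran from 1746 to 2250 with 1 array left out.

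Of 223 called named probes, 173 stayed called without a filter, 176 at 0.01, 218 to 222 with 1 array left out, and at least 216 under each other alternative except the filter at 16 on all 8 arrays, where 212 of 212 did. The counts within lists moved by over 1.5 times in 375 of 1456 cases with 1 array left out, and in 411 of 2184 under the other alternatives. Replicate numbers showed no sign of pairing the arrays. Correlations of same-numbered deviations (0.163, 0.0247, -0.0126 and -0.116) lay within those of unlike numbers (-0.206 to 0.230). So few values cannot exclude pairing. A replicate block gave 2335 calls, 1309 higher and 1026 lower, and 2078 for the difference from brain. Dim probes limit the calls, with 15.8% called at 16 to 32.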

Other observations

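Further gene groups were called in part. Among 24 matrix protease genes 7 rose and 2 fell, and with 1 array left out 0 to 1 fell (fewest without any of 4 arrays). The aggrecan-cleaving protease Adamts4 rose by 1.47 ± 0.32, Adam12 by 0.75 ± 0.15 and the membrane collagenase Mmp14 by 0.63 ± 0.14, and the inhibitor Timp4 had -0.90 ± 0.26, a call that was not stable. Among 15 stromal genes Angpt1, a vessel-stabilizing ligand, fell (-1.01 ± 0.19), as did Nt5e (-0.50 ± 0.12). The lymphocyte adhesion gene Cd2 fell (-0.84 ± 0.11) and the chemokine gene Ccl5 rose (0.63 ± 0.14), among 10 T and NK cell genes with 2 higher and 1 lower, and with 1 array left out 1 to 2 rose (fewest without any of 4 arrays).

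Of 24 antioxidant genes 5 fell and 2 rose, and with 1 array left out 1 to 2 rose (fewest without any of 6 arrays), and 3 to 5 fell (fewest without wild-type replicates 1, 2 or 4). Nqo1 had -0.87 ± 0.18, Prdx4 -0.47 ± 0.10 and Gstm1 1.21 ± 0.15. Of 24 autophagy genes 4 rose and 4 fell, and with 1 array left out 1 to 4 rose (fewest without wild-type replicates 1 or 4), and 2 to 3 fell (fewest without wild-type replicates 1 or 3 or Ali35 replicate 3). The initiating kinase Ulk1 had 0.84 ± 0.14, while Atg3 and Atg5, of the conjugation step, had -0.65 ± 0.13 and -0.43 ± 0.10. Among 30 splicing regulators the splicing cofactor Srrm2 rose from 421 ± 34.5 to 1115 ± 132 (SD, n = 4 each) and Srsf3 fell (log2 -0.47 ± 0.12). Hif1a, the oxygen-regulated factor, had -0.91 ± 0.22, a call that was not stable.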
